A study of Mus musculus with 15 samples.

Results

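The genes described here encode enzymes that oxidize 5-methylcytosine or take part in the base-excision repair of its oxidation products. They are Tet1, Tet2, Tet3, Tdg, Neil1, Neil2, Apex1 and Xrcc1, a list chosen by gene function. They are 8 of 20807 autosomal protein-coding genes, and their spans with 2 kb upstream hold 4888 of 20383623 autosomal CGs. The DNA came from mouse embryonic stem cells (line E14TG2a) grown on gelatin with serum and LIF, the cytokine that holds such cells undifferentiated. In hmTOP-seq the glucosyltransferase BGT places a tagged sugar on 5hmC, and an oligonucleotide tethered there primes the read, so that reads mark 5hmCGs. Labeled libraries were made from 500, 50 and 5 ng of DNA with 2 technical replicates each, and 2 control libraries per input lacked the BGT step. In uTOP-seq, made from 300 ng in 3 replicates, reads mark unmodified CGs (uCGs).

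As background, TET dioxygenases oxidize 5-methylcytosine to 5hmC and onward to formylcytosine and carboxylcytosine. The glycosylase TDG removes formylcytosine and carboxylcytosine from DNA, and an endonuclease, further glycosylases and ligation scaffolds take part in restoring an unmodified cytosine. Embryonic stem cells are known for high TET1 and TET2 levels and for a sizeable pool of 5hmC. No RNA was measured, so nothing below is a level of expression.

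On autosomes the 500-ng libraries held 32159559 and 31577846 reads and the 50-ng libraries 22772694 and 21808484. The 5-ng libraries held 14713053 and 15100983 reads, and the uTOP-seq libraries 27984728, 22715435 and 19816864. Relative coverage is used throughout for the reads per CG of an element divided by the mean reads per autosomal CG of the same library, so that 1 is the autosomal mean. The hmTOP-seq replicates were technical, so p-values between inputs measure the spread between libraries and not between cultures. For the uTOP-seq replicates the sources do not say whether they were technical or shared the DNA of the hmTOP-seq libraries. The libraries named K were taken as the controls, since the labels do not spell the letter out. They held 3386 to 9946 autosomal reads each. Over all 6 controls the 8 genes together held 8 reads, 7 of them in Tet3 in a single 500-ng control and 1 in Tet1 in a 50-ng control. Reads spread evenly over autosomal CGs would have placed 8.24 there.

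Tet1, Tet2 and Tet3 encode the dioxygenases. The Tet1 gene (chr10:62804570-62908996, minus strand) had relative 5hmCG coverage of 2.16 and 2.19 in the 500-ng libraries over the span with its upstream region, against a median of 1.02 among the 500 genes nearest in length. Both replicates were high, and the gene lay at percentile 92.2 of those genes. In uTOP-seq the Tet1 values were 2.30, 2.40 and 2.41, at percentile 99.6. Over this span Tet1 was thus well covered in both assays. Its upstream region alone had 0.845 and 0.968 for 5hmCG (percentile 62.4) and 0.728, 0.748 and 1.20 for uCG (percentile 16.6).

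Exons of Tet1 held more 5hmCG reads per CG than introns, with relative coverage of 2.74 and 2.91 in exons and 2.02 in both replicates in introns. The uCG values had the opposite order, at 1.81, 1.98 and 1.88 in exons and 2.46, 2.55 and 2.58 in introns. In neither assay did the exon and intron values overlap. Within exons, coding CGs had 5.88 and 6.10 reads per CG at 500 ng and untranslated ones 1.80 and 1.92. A CG island in the gene body, at chr10:62886091-62887677 with 92 CGs, held 4 and 1 reads at 500 ng and 530, 502 and 369 reads in uTOP-seq. The other 3 islands of Tet1 had the opposite order, with mean relative coverage of 6.83, 4.02 and 2.44 for 5hmCG beside 1.08, 2.74 and 1.36 for uCG. Islands here are stretches of 200 bp or more that reach a GC fraction of 0.5 and hold 0.6 or more of the CGs their base composition predicts. Islands, single exons and the split of exons into coding and untranslated CGs were looked at after the values were seen.

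In Tet2 (chr3:133463679-133545139, minus strand) the 500-ng values were 1.15 and 1.16 over the whole gene, at percentile 60.2 of genes of similar length. The uCG values were 1.85, 1.77 and 1.78, at percentile 94.2. The 5hmCG coverage was near that of genes of its length, and the uCG coverage was high in all 3 libraries. Exons held 2.19 and 1.94 and introns 0.876 and 0.949, so the replicates of the elements did not overlap. The island at the gene start, chr3:133543993-133545293 with 128 CGs, had 6 and 4 reads at 500 ng beside 279, 179 and 169 in uTOP-seq. Its other island, in the gene body, had 85 reads in each 500-ng library and 14, 24 and 7 in uTOP-seq.

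Tet3 (chr6:83362373-83459084, minus strand) had 500-ng exon values of 3.93 and 3.78, at percentile 97.4 for exons of genes of similar length. Its introns were at 1.57 and 1.5 and its upstream region at 1.74 and 1.25. Exons stood clear of both other elements. In uTOP-seq the Tet3 exons had 1.42, 1.37 and 1.43 and its introns 1.24, 1.20 and 1.24, a small gap. Exon 3 of 14 merged exons (chr6:83454750-83455480, 21 CGs) was the most covered among those with at least 10 CGs, with 9.86 and 10.5 reads per CG. An island of 170 CGs close by, chr6:83455729-83457358, held 28 and 16 reads at 500 ng and 331, 224 and 192 in uTOP-seq. In the other islands of Tet3, mean relative coverage was higher for 5hmCG than for uCG in 2 (6.25 beside 1.14 and 3.95 beside 0.376). It was lower in 2 (1.65 beside 2.28 and 0.107 beside 2.21).

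**Figure D1:**
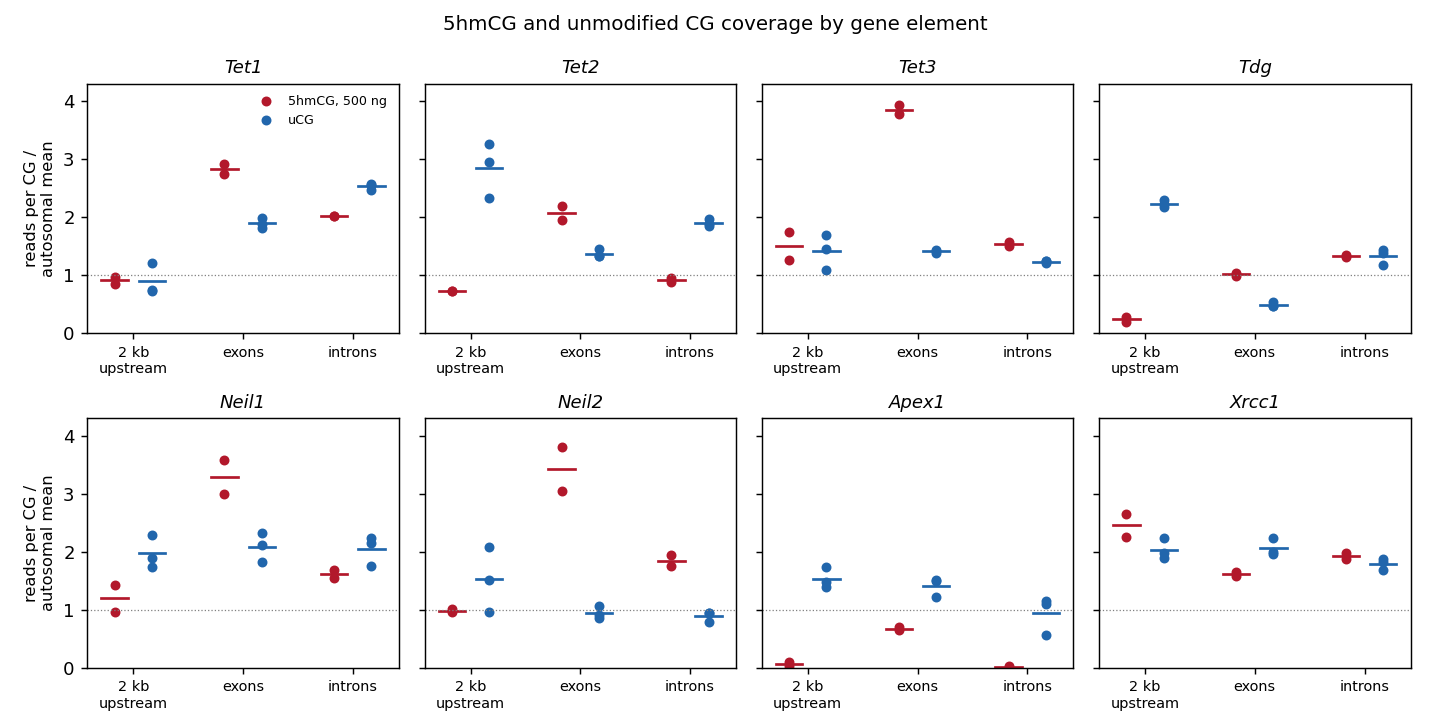
Relative coverage (reads per CG divided by the autosomal mean) of the 2 kb upstream, exons and introns of each gene, with a point per library and a bar at the group mean, for 500-ng hmTOP-seq (red, n = 2) and uTOP-seq (blue, n = 3). Exons of Tet3 reach 3.93, and the upstream region of Apex1 has 5hmCG points near 0 while its uCG points lie at 1.39 or above.

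Tdg encodes the thymine DNA glycosylase that excises formylcytosine and carboxylcytosine. The gene (chr10:82629828-82650799, plus strand) had upstream 5hmCG values of 0.197 and 0.273 at 500 ng and upstream uCG values of 2.30, 2.17 and 2.22. At 500 ng the relative coverage of the assays did not overlap there, with 5hmCG below uCG. Among upstream regions of genes of similar length, 5hmCG was at percentile 26.4 and uCG at percentile 60.2. The upstream 5hmCG values were 0.418 and 0.415 at 50 ng, and 2.12 and 0.0300 in the 5-ng replicates, so that 1 labeled library lay near the uCG level. In introns they were alike, at 1.31 and 1.34 for 5hmCG and 1.43, 1.18 and 1.38 for uCG. Over the whole gene the 500-ng values of 1.08 and 1.12 were at percentile 51.8 of genes of similar length, close to their median.

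The 200 bases before the start of Tdg are shown because they carried uCG reads and no 5hmCG read. They lie at chr10:82629628-82629827 on the plus strand of mm10 (GRCm38, RefSeq), with each CG in capitals, and were picked after the values were seen.
Tdg upstream: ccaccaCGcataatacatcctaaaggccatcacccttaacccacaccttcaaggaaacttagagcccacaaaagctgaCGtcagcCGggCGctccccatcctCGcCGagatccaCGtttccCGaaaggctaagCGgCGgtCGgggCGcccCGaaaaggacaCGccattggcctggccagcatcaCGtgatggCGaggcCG
The 17 CGs had 0 reads in each of the 6 labeled libraries and 56, 34 and 29 reads in uTOP-seq, spread over 15 of the CGs. Coverage changed further into the gene. In an island at chr10:82644084-82644548 with 24 CGs, the 500-ng libraries had 166 and 170 reads and the uTOP-seq libraries 53, 32 and 31. The island at the gene start had mean relative coverage of 0.0037 for 5hmCG and 1.71 for uCG, and the other 2 islands of the gene had 0.521 beside 2.84 and 0.682 beside 0.0910.

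Neil1 and Neil2 encode glycosylases that excise oxidized bases. Exons of Neil1 (chr9:57142800-57148305, minus strand) had 500-ng values of 3.0 and 3.59 and introns 1.68 and 1.55. The exon values were the higher ones in both replicates. At 5 ng exons had 1.33 and 2.32 and introns 0.88 and 3.48, so the order differed between the replicates. In uTOP-seq the exon and intron values overlapped. The island at its start, chr9:57148107-57148609 with 23 CGs, had 1 and 0 reads at 500 ng and 93, 58 and 66 in uTOP-seq, while another in the body, chr9:57146604-57146806 with 11 CGs, had 114 and 120 against 28, 25 and 21. The order of the assays was thus opposite in these 2 islands, and the other island of the gene had 4 and 3 reads at 500 ng and 46, 43 and 37 in uTOP-seq.

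Neil2 (chr14:63182443-63193856, minus strand) had 500-ng values of 2.01 and 1.79 over the whole gene and uCG values of 1.07, 0.840 and 1.16. The assays did not overlap, with 5hmCG at percentile 70.2 and uCG at percentile 22.6 of genes of similar length. Exons of Neil2 held 3.80 and 3.05 at 500 ng, on 26 CGs.

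Apex1 encodes the endonuclease that cuts the DNA backbone at sites without a base. It is the shortest of the genes (chr14:50924968-50927139, plus strand, 2172 bp), and 58 of its 65 upstream CGs and 18 of its body CGs lie inside the neighboring genes Osgep or Pip4p1. Reads there cannot be assigned to 1 gene. Its 500-ng values were 0.296 and 0.306 over the whole gene, beside 1.40, 1.45 and 1.37 in uTOP-seq. It was the only member under the median of genes of similar length at 500 ng, at percentile 24.8. Its log2 ratio to that median, -1.45, depended on the CGs counted: it was -5.27 with CGs of other genes left out and -0.67 with the gene body alone. In introns 0 and 1 reads were counted at 500 ng over 18 CGs, too few to tell low from absent. The 5hmCG reads lay mostly in coding CGs, with 1.97 and 1.86 reads per CG. Since the ratio fell to -5.27 without CGs of other genes, most of these reads lay in CGs shared with a neighboring gene. They cannot be assigned to Apex1 alone.

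Xrcc1 encodes a scaffold protein that holds polymerase and ligase at the repaired strand. The gene (chr7:24546289-24573440, plus strand) had upstream 500-ng values of 2.26 and 2.66, at percentile 90.8 of genes of similar length, and 23 of the 25 upstream CGs lie in the neighboring Pinlyp. The upstream values were 1.79 and 2.54 in the 50-ng libraries. Those of the 5-ng libraries, 0.222 and 0.594 (percentile 44.4), lay below the others and rested on 4 and 11 reads. Its upstream uCG values were 2.24, 1.97 and 1.89. The assays lay close there. Inside the gene an island of 67 CGs at chr7:24546676-24547712 had 8 and 7 reads at 500 ng and 287, 216 and 190 in uTOP-seq. The other 2 islands of Xrcc1 had mean relative coverage of 3.62 and 2.01 for 5hmCG beside 3.10 and 1.06 for uCG.

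**Figure D2:**
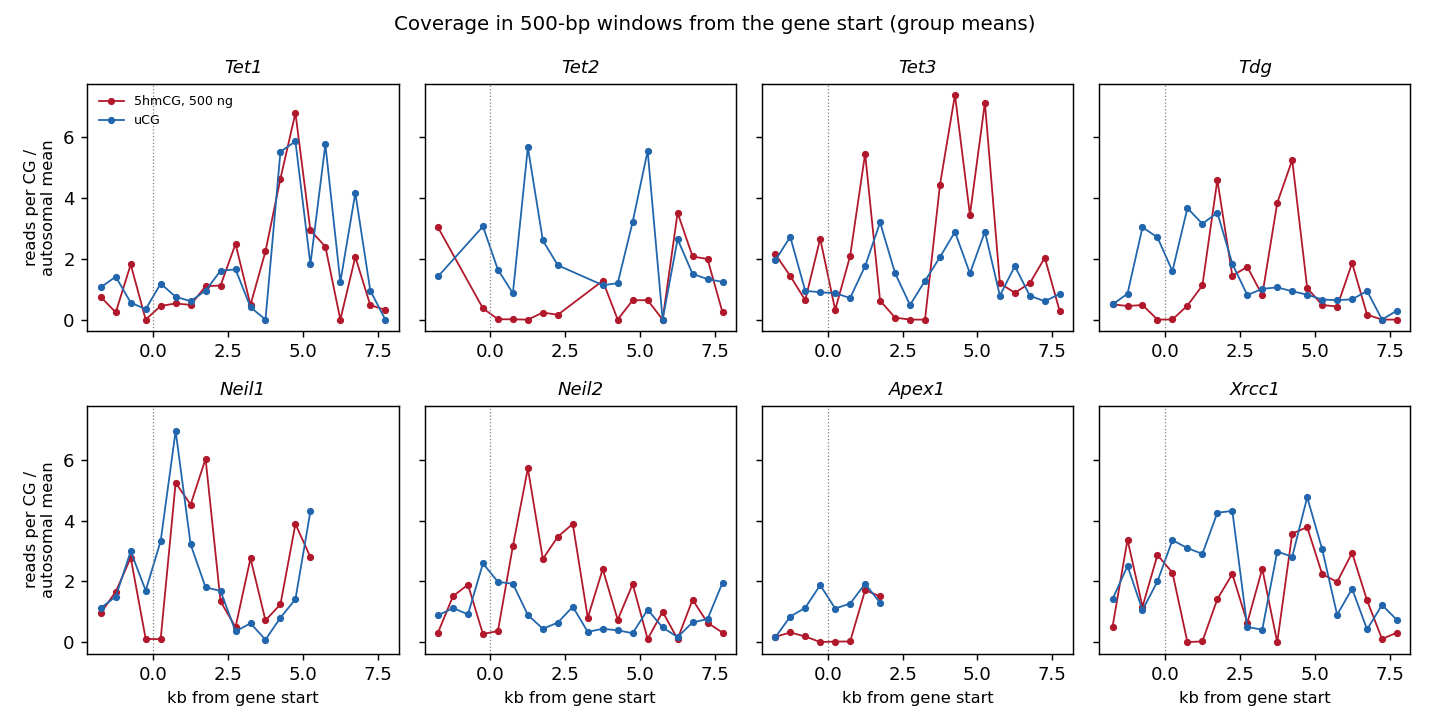
Mean relative coverage in windows of 500 bp from 2 kb before the gene start, against distance from the start in kb, for 500-ng hmTOP-seq (red) and uTOP-seq (blue), where windows without a CG have no point. In Tdg the 5hmCG line is at 0 in the window before the start, where the uCG line is at 2.70.

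To show single sites, the CG with the highest mean 500-ng count of each gene is given with 29 bases on each side, on the plus strand of GRCm38 and with that CG in capitals. The contexts lie at chr10:62846240-62846299 (Tet1, intron), chr3:133486160-133486219 (Tet2, coding exon), chr6:83443586-83443645 (Tet3, intron), chr10:82631606-82631665 (Tdg, intron), chr9:57146680-57146739 (Neil1, coding exon), chr14:63192475-63192534 (Neil2, intron), chr14:50926747-50926806 (Apex1, coding exon) and chr7:24572175-24572234 (Xrcc1, intron).
Tet1: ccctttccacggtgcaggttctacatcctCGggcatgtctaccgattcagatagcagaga
Tet2: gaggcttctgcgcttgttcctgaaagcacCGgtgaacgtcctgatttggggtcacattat
Tet3: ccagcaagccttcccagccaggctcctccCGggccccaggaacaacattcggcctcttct
Tdg: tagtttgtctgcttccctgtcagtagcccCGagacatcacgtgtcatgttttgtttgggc
Neil1: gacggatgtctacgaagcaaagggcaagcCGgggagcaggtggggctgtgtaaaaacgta
Neil2: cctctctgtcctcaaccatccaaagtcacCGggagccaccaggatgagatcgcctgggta
Apex1: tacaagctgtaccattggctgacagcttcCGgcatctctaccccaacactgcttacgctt
Xrcc1: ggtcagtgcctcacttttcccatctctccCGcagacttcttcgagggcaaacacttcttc
None of the strongest CGs lay in an upstream region. In decreasing order of input, the Tet1 site had 45 and 49, then 27 and 36, then 15 and 0 reads, and 17, 18 and 11 in uTOP-seq. The Neil1 site had 37 and 37, then 24 and 9, then 11 and 0 reads, and 3, 8 and 2 in uTOP-seq. The Apex1 site had 13 and 18, then 11 and 4, then 0 and 4 reads, and 1 in each uTOP-seq library. Most 5hmCG reads of Apex1 lay in CGs shared with a neighboring gene, so its site may not belong to Apex1 alone. At 5 ng a site could thus be covered in one replicate and empty in the other.

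Over all 8 genes, exons exceeded introns at 500 ng in both replicates in 6, the exceptions being Tdg and Xrcc1. The same order was found in 56.2% of 17589 genes with at least 10 CGs in each element. At 50 ng 6 of the 8 had this order in both replicates (48.0% of genes), and at 5 ng 5 of the 8 (32.4%). In uTOP-seq 3 of the 8 had it in all replicates (47.7%). The gene body exceeded the upstream region in 7 of the 8, all but Xrcc1, beside 60.0% of 18176 genes. In the 50-ng libraries 4 of the 8 had that order, close to the 54.8% of all genes, and in the 5-ng libraries 5 of the 8, beside 48.9%. In uTOP-seq 1 of the 8 had it in all replicates, beside 19.5% of genes.

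Beside genes of similar length, 7 of the 8 were above the median at each DNA input, and 5 of the 8 in uTOP-seq. The median percentile was 74.5 at 500 ng and 65.9 in uTOP-seq, where 50 is the middle of the compared genes. With genes matched on CG density as well as length, Tdg lay below the median at 500 ng, with a log2 ratio of -0.65 in place of 0.05, and 3 of the 8 were above it in uTOP-seq. Under that match the log2 ratio was also smaller for Tet3 (0.16 in place of 0.997), Neil1 (0.55 in place of 1.76) and Xrcc1 (0.18 in place of 0.72), while Tet1 had 0.88 in place of 1.09 and Neil2 0.46 in place of 0.53. It was larger for Tet2, 0.41 in place of 0.27. Of 25 other autosomal genes of the pathway, 13 were above the median at 500 ng and 19 in uTOP-seq. Among the highest by log2 ratio at 500 ng were Cxxc5 (1.62) and Fen1 (0.90), and the lowest were Pcna (-3.16), Cxxc4 (-1.89) and Idh1 (-1.38).

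**Figure D3:**
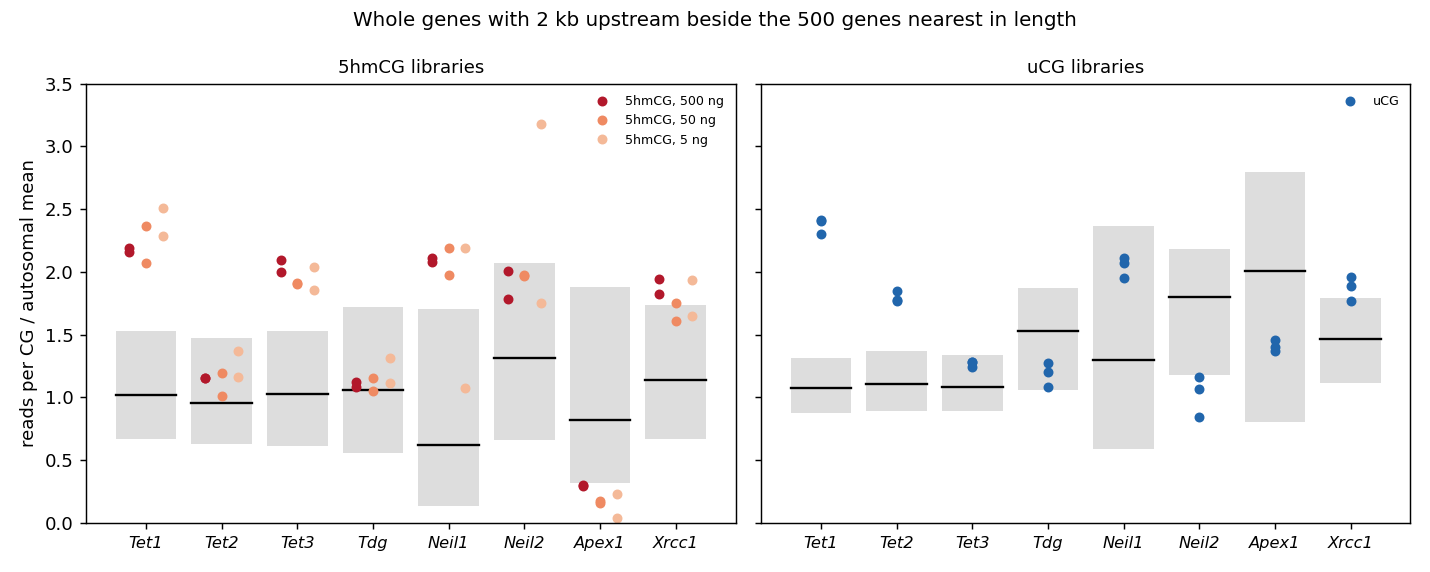
Relative coverage of each gene with 2 kb upstream, with a point per library, for hmTOP-seq at 500, 50 and 5 ng (left, n = 2 each) and uTOP-seq (right, n = 3). Grey boxes span the quartiles of the 500 genes nearest in length (left, at 500 ng) and black lines their median. Apex1 lies under its line in every hmTOP-seq library.

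The next question was whether coverage per gene held at lower DNA input. In relative coverage over the whole gene, Tet1 had 2.07 and 2.36 in the 50-ng libraries and 2.29 and 2.51 in the 5-ng ones. Tet3 had 1.91 and 1.90, then 2.04 and 1.86. Neil1 had 2.19 and 1.97, then 1.08 and 2.19. Values of Tet1 and Tet3 lay close together in these libraries, and those of Neil1 differed between the 5-ng replicates. Those of Neil2 also differed at 5 ng, at 1.75 and 3.18. The test was edgeR's quasi-likelihood test. At 50 against 500 ng, 0 of the 8 genes passed an adjusted p of 0.05, and 1 of 18814 genes did (0.00532%). That gene, named after its values were seen, was Gm20388, with a log2 fold change of -0.08. At an unadjusted p of 0.05 there were 2178 genes, and DESeq2 called 140. DESeq2 gave no adjusted p for 14225 genes, with Tdg, Neil1, Neil2 and Apex1 among them, and called none of the other 4 members. At 5 against 500 ng, 0 of the 8 and 0 of 18639 genes were called (0%), with 2104 at an unadjusted p of 0.05 and 992 by DESeq2, none of them among the 8. Counts were higher where a lower-input group was left with 1 library, which is then assumed to vary like the 500-ng pair: 2379 and 2391 genes without replicate 1 or 2 at 50 ng, and 10835 and 10579 without replicate 1 or 2 at 5 ng. Of the 8, Tet1 (0.13) or Xrcc1 (-0.22) was then called at 50 ng. At 5 ng, 4 of the 8 were called without replicate 1 and 3 without replicate 2. Without 500-ng replicate 2 the count at 50 ng was 2.

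Apex1 had 64 and 65 reads in the 500-ng libraries, then 24 and 26, and 23 and 4 in the 5-ng ones. Its log2 fold change was -0.84 ± 0.39 (SE) at 50 ng (edgeR adjusted p = 0.437) and -1.10 ± 1.02 at 5 ng (adjusted p = 0.721). The lower-input values lay under the 500-ng ones, but the reads were few and the 5-ng replicates far apart. That gap lay in the upstream region, with 18 and 0 reads at 5 ng, where most CGs belong to another gene as well. The gene body of Apex1 had 60 and 55, then 22 and 13, then 5 and 4 reads in decreasing order of input. There the 5-ng replicates lay close and the inputs did not overlap, and the log2 fold changes were -1.18 at 50 ng and -2.51 at 5 ng, neither of them called. Of the 72 body CGs, 18 also lie in a neighboring gene. With CGs of other genes left out, Apex1 had too few reads to be tested at either input. The fall with input thus cannot be assigned to Apex1 alone. Without 5-ng replicate 1 the value over the whole gene with its upstream region was -2.87 and called. For the other members the log2 fold changes ran from -0.15 to 0.07 at 50 ng and from -0.31 to 0.42 at 5 ng.

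Single CGs were covered less often at lower input. In Tet1, 543 of 1232 CGs had reads in both 500-ng replicates, 297 in both 50-ng replicates and 48 in both 5-ng ones. The correlation of the replicates across the CGs of Tet1, which are not independent and share their library, was 0.817, 0.439 and 0.0649 in the same order. Gene totals of Tet1 were close between replicates, at 4191 and 4176 reads at 500 ng and 2036 and 2288 at 5 ng.

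**Figure D4:**
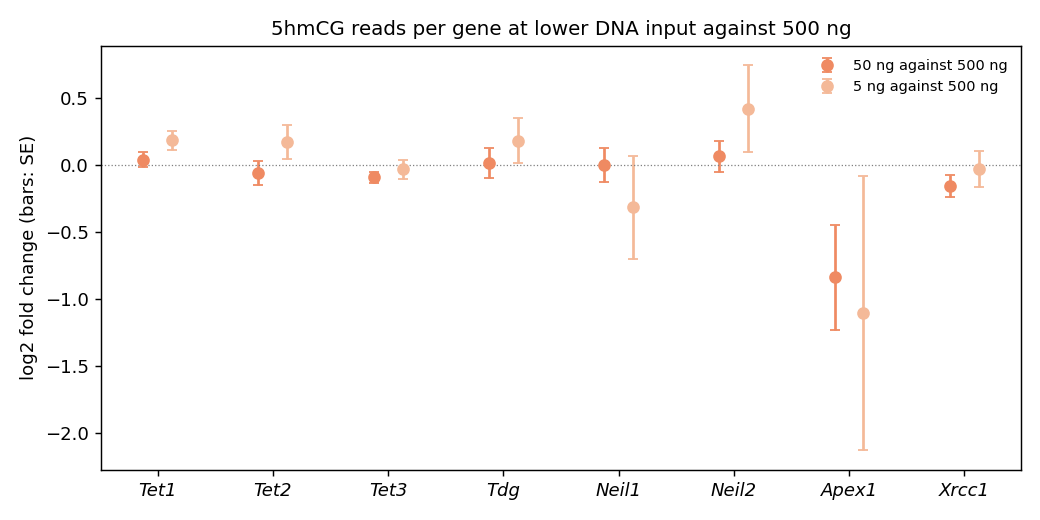
Fitted log2 fold change of 5hmCG reads per gene at 50 and 5 ng against 500 ng, with bars of 1 SE. Apex1 has the lowest values, -0.84 and -1.10, with the widest bars, and none of the genes shown passed the test.

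The assays were compared by reads per gene at 500 ng against uTOP-seq. With TMM scaling a fold change between them is relative to the typical gene. All 8 genes were called by edgeR, beside 82.1% of 19522 genes, so the count is not far from the background. With DESeq2, with at least 10 reads in every library or with CGs of other genes left out, 7 of the 8 were called, without Tdg. Of the 8, 6 were higher (40.3% of all genes) and 2 lower (41.8%). The median log2 fold change was 0.25 over the 8 and -0.03 over all genes, and in the other pathway genes 5 of 25 were higher and 16 lower.

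Neil2 had 598 and 523 reads at 500 ng and 277, 177 and 214 in uTOP-seq. The groups did not overlap, and its log2 fold change was 1.19 ± 0.11 (SE; edgeR adjusted p = 1.80e-13), at percentile 94.9 of all genes tested. Tet3 followed with 0.99 ± 0.04 at percentile 91.3. Apex1 was lowest with -1.92 ± 0.17 at percentile 7.34 (-5.50 with CGs of other genes left out, -1.15 with the gene body alone), and Tet2 had -0.34 ± 0.05. Scaling by library totals without TMM moved the median of all genes to -0.33 and left 2 of the 8 higher and 3 lower, with 5288 genes higher and 10810 lower in place of 7867 and 8162. Under it Tet1 turned from 0.18 to -0.12 and Tdg from 0.20 to -0.10, so the direction of these 2 genes depends on the scaling. The call of Tdg (edgeR adjusted p = 0.0337) was also lost without 500-ng replicate 1 (0.23) or 2 (0.17) and without uTOP-seq replicate 2 (0.13), and that of Tet1 with the gene body alone (0.07).

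The division of reads between the upstream region and the gene body was compared between the assays by an interaction term. It differed in 6 of the 8 genes, all with relatively fewer upstream reads in hmTOP-seq, beside 71.4% of 16954 genes in either direction, 15.1% with more and 56.4% with fewer. Tdg had the lowest value of the 8, -3.46 ± 0.28 (SE; edgeR adjusted p = 2.68e-13), followed by Apex1 with -3.11 ± 0.48. The Apex1 value rested on 4 and 10 upstream reads at 500 ng, beside 60 and 55 in the gene body. With CGs of other genes left out, Apex1 and Xrcc1 could not be tested, and 5 of the other 6 were called. Tet1 (0.18 ± 0.32) and Xrcc1 (0.27 ± 0.22) did not pass. In Tet1, Tet3 and Xrcc1 the islands of 92, 170 and 67 CGs with few 5hmCG reads lay in the gene body and did not hold the start. In Tet2, Tdg, Neil1 and Apex1 an island held the start. Whether the place of the islands bears on the interaction values was not tested. With 1 kb on both sides of the gene start in place of the upstream region, the median of all genes was -2.55 in place of -0.91, and 12407 of 16855 genes were lower. Under it Xrcc1 had -2.01, above that median, and Tet3 had 0.08 in place of -0.62. The call of Tet3 (edgeR adjusted p = 0.0471) was lost with DESeq2 (-0.62), with no filter on low counts (-0.62), without 500-ng replicate 2 (-0.44) and without uTOP-seq replicate 1 (-0.61) or 2 (-0.48), and that of Neil1 (-0.94) without 500-ng replicate 2 (-0.62). Of the other pathway genes 3 of 25 were higher and 17 lower.

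The genes most like the members in the 12 values of 3 elements by 4 groups, among 16496 genes, were Cabp7 for Tet1, Bcl6 for Tet2, AC131692.1 for Tet3, Ahi1 for Tdg, Slc25a29 for Neil1, Asb14 for Neil2, Nefl for Apex1 and Tmco4 for Xrcc1. The Euclidean distance on scaled log2 values was smallest for Tet3, 0.465, and largest for Apex1, 1.85. Among genes that mark embryonic stem cells, upstream uCG coverage of the pluripotency genes Pou5f1 and Sox2 was 5.58, 5.80 and 7.71 and 2.19, 2.51 and 2.58. Esrrb had the lowest such values of the 6 marker genes, 1.11, 1.07 and 1.57. Such coverage was not compared with that of other genes and does not establish the cell type.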

How the data were processed

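The deposited values are read counts per CG. For hmTOP-seq the authors mapped reads to mm10, removed duplicates by start and length, and assigned reads to CG sites; uTOP-seq followed their earlier procedure, and the aligner is not given in the sources used here. Duplicates were removed without molecular identifiers, so counting error is a lower limit. All 15 libraries were used, grouped by assay and DNA input. Counts were summed per gene (GENCODE M21, autosomes) over the span and 2 kb upstream, over exons of protein-coding transcripts and over the rest. Each gene was set beside the 500 other genes nearest in length. Genes with a mean of at least 10 reads were tested with edgeR 4.0.16 (R 4.3.3, TMM, quasi-likelihood F test, Benjamini-Hochberg adjustment), and the SE was taken from the F statistic. The interaction used library totals and a mean of at least 10 reads in each element. DESeq2 1.42.0 was an alternative. Each fit was tested on simulated counts. Sums and figures used Python 3.11.15. Named were the 8 members, their strongest CG, the nearest gene in pattern, and genes among the 3 highest and 3 lowest of the other pathway genes, of which Apex2, not autosomal, was left out. Members and lists were chosen with earlier results of these data known. CG islands and single exons were added after the values were seen.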

Additional observations from a re-analysis of the deposited data

Results flagged for a closer look

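In 6 genes the division of reads between the upstream region and the gene body differed between 5hmCG and uCG by a test of the difference itself. The log2 values of the interaction were -3.46 in Tdg, -3.11 in Apex1, -1.82 in Neil2, -1.35 in Tet2, -0.94 in Neil1 and -0.62 in Tet3, where a negative value means relatively fewer upstream reads in hmTOP-seq. A difference in either direction was called in 71.4% of all genes tested and this direction in 56.4%, and the median of all genes was -0.91, so that Neil1 lay near it and Tet3 above it. In Tet3 the call was lost with DESeq2, with no filter, without 500-ng replicate 2 and without uTOP-seq replicate 1 or 2, and in Neil1 without 500-ng replicate 2. With 1 kb on both sides of the gene start in place of the upstream region, the direction in Tet3 turned. Its island of 170 CGs with few 5hmCG reads lies in the gene body and does not hold the start. Apex1 could not be tested with CGs of other genes left out, since 58 of its 65 upstream CGs lie in another gene. Its value rested on 4 and 10 upstream reads at 500 ng. Groups of 2 or 3 libraries were too small for a test of single outlying libraries.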

How the results depend on the processing

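Genes called at 50 against 500 ng, 1 in the fit reported, were 140 with DESeq2 (adjusted p NA for 14225 genes), 3 with CGs capped at 50 reads, and 0 with no filter, with at least 10 reads in every library, with CGs of other genes left out and with all 6 labeled libraries in 1 fit. At 5 against 500 ng, 0 became 992 with DESeq2. Leaving out a replicate gave 1 to 2391 genes and 0 to 1 members at 50 ng, and 0 to 10835 genes and 0 to 4 members at 5 ng. The high counts arose where a lower-input group was left with 1 library, which is then assumed to vary like the 500-ng pair. Replicates share a number only: the correlation of same-numbered deviations was 0.035, -0.0097 and -0.0034, and a replicate block gave 109 genes at 50 ng, 2 at 5 ng and 15764 for 500 ng against uTOP-seq, where 16029 were called without it.

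Of the 8 genes, 3 in place of 5 were above the median in uTOP-seq when matched on length and CG density, which also turned Tdg at 500 ng to -0.65. At 50 ng, 4 in place of 7 had the gene body above the upstream region. Library totals without TMM left 5 of 8 called between the assays and turned Tet1 to -0.12, Tdg to -0.10 and, at 50 ng, Neil1 to -0.0078. With 1 kb on both sides of the start the interaction turned to 0.081 in Tet3 and -2.01 in Xrcc1. Gene body only turned uncalled values near 0: Tdg to -0.0084 and Neil1 to -0.014 at 50 ng, Xrcc1 to 0.067 at 5 ng, and leaving out CGs of other genes turned Xrcc1 to 0.041. The cause was not tested.

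Leaving out single replicates turned the direction of further values that were not called with all libraries: at 50 ng Tet1 (-0.0561 to 0.135), Tet2 (-0.183 to 0.0616), Tdg (-0.0550 to 0.0849), Neil1 (-0.0711 to 0.0765) and Neil2 (-0.0116 to 0.151), and at 5 ng Tet3 (-0.0938 to 0.0355), Neil1 (-0.915 to 0.111), Neil2 (-0.0688 to 0.791) and Xrcc1 (-0.145 to 0.0866). Within these ranges Tet1 at 0.135, Neil1 at -0.915 and Neil2 at 0.791 were called.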
